A study of Mus musculus with 2 samples.

Results

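A set of 5 genes of purine signalling at the cell surface were followed in innate lymphoid cells (ILCs) of the mouse gut. They were Entpd1 (CD39) and Nt5e (CD73), P2rx7, P2ry1 and Adora2a, taken by name from the 17238 genes of the authors' count table. The cells came from C57BL/6 mice aged 8 weeks and called fed in the sample titles, and had been sorted as IL7ra+ ILC. Each tissue gave 1 library, made from a pool of 8 mice, so that no difference between the tissues has a replicate and no test between them was possible. All intervals are 95% intervals and cover counting error only.

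Within each tissue, cells were grouped by at least 1 unique molecular identifier (UMI, 1 captured RNA molecule) of a marker gene. Ccr6 is a chemokine receptor of lymphoid-tissue-inducer ILC3. Ncr1 encodes NKp46, carried by NCR+ ILC3, ILC1 and NK cells. Gata3 is the transcription factor of ILC2, at lower levels also made by other ILCs and T cells. Klrd1 (CD94) marks NK cells and part of the ILC1, and Cd3e is a subunit of the T cell receptor complex. The Ccr6+ group had 541 small intestine cells and 357 colon cells, the Ncr1+ group 1605 and 665, the Gata3+ group 1643 and 4218, the Klrd1+ group 172 and 482, and the Cd3e+ group 429 and 1384. A cell could be in several groups (13.2% and 13.5% of all cells were) or in none (34.3% and 21.4%). The groups are therefore sets of cells with 1 detected marker and not pure cell types.

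The authors' table held 5490 small intestine cells with a median of 2579 UMIs and 7549 colon cells with a median of 2600. Il7r, the gene of the sort, had a UMI in 83.7% of the small intestine cells and 67.5% of the colon cells. Cd3e, which ILCs lack at the surface, had a UMI in 7.81% and 18.3% of the cells. Antibody-secreting and B cell markers made up 7188 CPM of the small intestine library and 2454 CPM of the colon library (CPM are counts scaled to a common total of UMIs over the cells in question), nearly all of it from Igha, Igkc and Jchain. Myeloid markers summed to 1.99 and 3.76 CPM and epithelial markers to 29.2 and 13.4 CPM. Hspa1a, a heat-shock gene induced by handling of cells, was lower in the small intestine (132 CPM) than in the colon (243 CPM), whereas Jun was at 2089 and 866 CPM. The part of these differences in the results below was not tested, except where a value without the cells in question is given.

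ATP that leaves stressed or activated cells acts on P2 receptors. ENTPD1 removes phosphates from ATP and ADP to give AMP, and NT5E turns AMP into adenosine, which acts on P1 receptors such as ADORA2A. P2RX7 is an ion channel opened by high ATP, and P2RY1 is a G-protein-coupled receptor for ADP. ADORA2A raises cyclic AMP and dampens the activity of many lymphocytes.

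RefSeq (GRCm38.p6) held promoter sequences for 4 of the 5 genes, and not for Adora2a. They are windows from 250 bases before to 50 bases after an annotated start, and those of the 3 genes that were higher in the small intestine with over 400 UMIs in all are printed, since these genes moved together between the libraries. A total of 5 short motifs were searched on both strands. They were the nuclear receptor motif AGGTCA, the motif AGATAA of GATA factors, the RUNX motif TGTGGT, the core TGACG of the cyclic AMP response element, and the GC box with the letters GGGCGG. Capitals mark the matches, read on either strand, and overlapping matches run together. The windows lie at chr9:88327359-88327658 on the + strand for Nt5e, chr5:122643677-122643976 on the + strand for P2rx7 (the first of its annotated starts) and chr3:61002535-61002834 on the + strand for P2ry1.
Nt5e: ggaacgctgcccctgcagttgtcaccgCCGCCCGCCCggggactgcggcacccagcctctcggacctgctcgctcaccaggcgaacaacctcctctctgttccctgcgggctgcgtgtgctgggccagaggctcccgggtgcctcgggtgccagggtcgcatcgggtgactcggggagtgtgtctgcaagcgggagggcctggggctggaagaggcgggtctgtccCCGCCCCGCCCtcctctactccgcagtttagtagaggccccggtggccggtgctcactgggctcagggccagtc
P2rx7: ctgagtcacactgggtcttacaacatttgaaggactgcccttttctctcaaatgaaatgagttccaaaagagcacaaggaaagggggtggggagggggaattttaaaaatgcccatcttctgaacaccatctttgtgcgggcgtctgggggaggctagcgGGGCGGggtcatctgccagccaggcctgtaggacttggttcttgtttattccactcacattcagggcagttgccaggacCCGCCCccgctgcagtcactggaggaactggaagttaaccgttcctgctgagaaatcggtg
P2ry1: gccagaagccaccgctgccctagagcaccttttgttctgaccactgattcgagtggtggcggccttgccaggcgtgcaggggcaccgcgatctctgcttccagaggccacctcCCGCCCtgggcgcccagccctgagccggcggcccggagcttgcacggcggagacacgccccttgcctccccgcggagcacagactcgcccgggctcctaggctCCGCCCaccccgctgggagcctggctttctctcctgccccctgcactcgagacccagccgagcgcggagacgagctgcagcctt
The windows differed in composition. Those of Nt5e and P2ry1 were 71.0% and 70.7% G and C, and that of P2rx7 53.3%, beside a median of 52.7% over the 32851 mouse promoters in the table. GC-box letters matched at 4 positions in Nt5e, 2 in P2rx7 and 2 in P2ry1, a match that 35.7% of all promoters hold. The other 4 motifs matched in none of the 3 windows, at shares of all promoters of 16.3% for nuclear receptors, 11.2% for GATA factors, 16.8% for RUNX and 20.8% for the cyclic AMP core. The second annotated start of P2rx7 had 1 nuclear receptor match and 1 GATA match.

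Over all cells, 4 of the 5 genes passed 2-fold with the small intestine library on top, and 1, Adora2a, passed it with the colon library on top. By the same rule (at least 20 UMIs in the libraries together and a ratio of at least 2), 8.92% of the 11962 genes measured had the small intestine on top and 5.42% the colon. In Ccr6+ cells 3 of 4 measured genes had the small intestine on top (7.47% of all genes) and 1 the colon (3.40%). In Ncr1+ cells these counts were 3 of 4 (9.26%) and 1 (4.13%). In Gata3+ cells they were 2 of 4 (7.42%) and 0 (4.40%), in Klrd1+ cells 2 of 3 (7.17%) and 0 (4.89%), and in Cd3e+ cells 3 of 4 (5.12%) and 0 (4.32%). Genes left out of a count had fewer than 20 UMIs. By direction alone, at any ratio above 1, the small intestine was the higher library for most measured members in every group. In Gata3+ cells this includes Nt5e, at 1.90-fold. Measured genes as a whole also leaned to the small intestine. Their median log2 ratio of small intestine to colon was 0.18 in Ccr6+ cells, 0.21 in Ncr1+ cells and 0.16 in Gata3+ cells. In Klrd1+ and Cd3e+ cells it was 0.16 and 0.15. The position of Adora2a depended on the group.

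**Figure D1:**
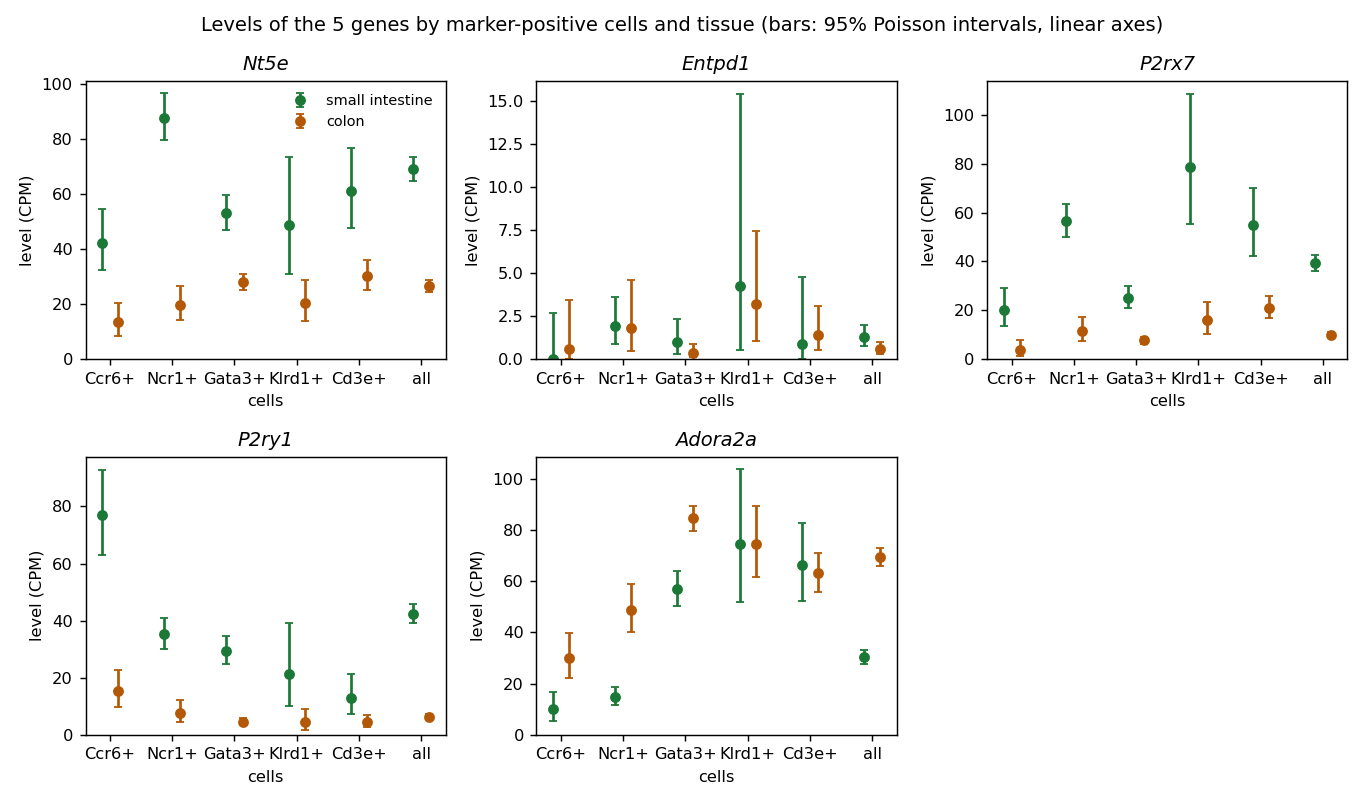
Level in CPM (linear axes, 1 panel per gene with its own scale) in the cells positive for each marker and in all cells, small intestine in green and colon in orange; points are sums over the cells of 1 library and bars are exact Poisson 95% intervals. Nt5e, P2rx7 and P2ry1 lie higher in the small intestine, Entpd1 is near 0 throughout, and Adora2a is lower in small intestine Ccr6+, Ncr1+ and Gata3+ cells.

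Nt5e (ENSMUSG00000032420, chr9:88327197-88372092, + strand, mm10) encodes the enzyme that makes adenosine from AMP. Its level in the small intestine was 42.4 CPM in Ccr6+ cells, 87.9 CPM in Ncr1+ cells, 53.1 CPM in Gata3+ cells, 49.0 CPM in Klrd1+ cells and 61.0 CPM in Cd3e+ cells. In the colon it was 13.5, 19.7, 28.0, 20.4 and 30.3 CPM in the same order. The Ncr1+ group was the highest in the small intestine, with an interval (79.7 to 96.8 CPM) that did not overlap that of the next group (Cd3e+, 47.6 to 76.9 CPM), whereas in the colon each group overlapped its neighbours in the order Cd3e+, Gata3+, Klrd1+, Ncr1+, Ccr6+. The ratio of small intestine to colon was 4.46 in Ncr1+ cells (3.26 to 6.23), 3.15 in Ccr6+ cells (1.90 to 5.39), 2.40 in Klrd1+ cells (1.34 to 4.24), 2.01 in Cd3e+ cells (1.48 to 2.71) and 1.90 in Gata3+ cells (1.62 to 2.22). The interval in Ncr1+ cells lies above those in Gata3+ and Cd3e+ cells. After thinning of each cell to 1000 UMIs, which also changed the cells that counted as Ncr1+, the Ncr1+ ratio was 2.63. That value lies inside the Cd3e+ interval taken before thinning, so the 2 are not a like comparison. With at least 2 Ncr1 UMIs the Ncr1+ ratio was 7.20. Some cells are in more than 1 group, and the difference between groups was not tested. The Cd3e+ ratio stood at the 2-fold limit and was below it under 7 of 12 other choices, for example 1.80 with the UMIs scaled by the median ratio of genes in place of the total.

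Nt5e was also spread among cells with no detected marker, at 78.6 CPM (small intestine) and 23.8 CPM (colon), a ratio of 3.31 (2.64 to 4.18). After each cell was thinned to 1000 UMIs, 6.50% of the small intestine cells (5.86 to 7.19%) and 2.76% of the colon cells (2.40 to 3.15%) had an Nt5e UMI. Unthinned shares were 16.0% and 6.81%. Free RNA alone would give 0.206% and 0.115% of the thinned cells, as estimated from barcodes with 10 to 50 UMIs and 3 antibody genes, so both libraries were well above that level.

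Entpd1 (ENSMUSG00000048120, chr19:40612366-40741602, + strand), the enzyme upstream of Nt5e, had 19 UMIs in the small intestine library and 13 in the colon library. These were levels of 1.26 CPM (0.759 to 1.97) and 0.582 CPM (0.310 to 0.995), with a ratio of 2.16 whose interval of 1.01 to 4.77 reaches nearly to 1. The largest number in a marker group was 9 UMIs, in small intestine Ncr1+ cells. Small intestine Ccr6+ cells had 0 of 1392386 UMIs, where a limit of 3 counts is 2.15 CPM and the exact interval reaches 2.65 CPM. No group had enough Entpd1 for a comparison, and the ratio over all cells was below 2-fold under 4 of 9 other choices, 1.86 with the median-ratio scaling and 1.84 without cells above 5000 UMIs. Cells with UMIs of both Entpd1 and Nt5e, the pair of enzymes that leads from ATP to adenosine, numbered 2 in each library. At this depth the overlap of the enzymes in single cells could not be measured.

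P2rx7 (ENSMUSG00000029468, chr5:122643911-122691432, + strand) is the ATP-gated channel of the set. Its level in the small intestine was 20.1 CPM in Ccr6+ cells, 56.5 CPM in Ncr1+ cells, 25.1 CPM in Gata3+ cells, 78.8 CPM in Klrd1+ cells and 55.0 CPM in Cd3e+ cells. In the colon it was 3.67, 11.7, 7.62, 15.9 and 20.9 CPM in the same order. In both libraries Klrd1+, Ncr1+ and Cd3e+ cells were the upper 3 groups and Gata3+ and Ccr6+ cells the lower pair, a step that the intervals separated in the small intestine and not in the colon. The small intestine was higher 5.47-fold in Ccr6+ cells (2.22 to 16.2, with 6 colon UMIs), 4.85-fold in Ncr1+ cells (3.24 to 7.56), 3.29-fold in Gata3+ cells (2.52 to 4.31), 4.95-fold in Klrd1+ cells (2.90 to 8.58) and 2.63-fold in Cd3e+ cells (1.88 to 3.68). All 5 intervals overlap.

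Contrasts of P2rx7 within a library differed in size. Cd3e+ cells had 2.89 times the level of Cd3e- cells in the colon (2.18 to 3.81) and 1.45 times in the small intestine (1.10 to 1.88). Ncr1+ cells were at 1.81 times Ncr1- cells in the small intestine (1.53 to 2.13) and at 1.21 in the colon, where the interval (0.773 to 1.83) includes 1. Klrd1+ cells of the small intestine had 2.08 times the level of Klrd1- cells (1.45 to 2.90). Of these 172 Klrd1+ cells, 50 (29.1%) also had a Cd3e UMI and 90 (52.3%) an Ncr1 UMI. The T cell gene Cd3g was at 615 CPM in them, against 132 CPM in all small intestine cells. The 31 cells with Klrd1 as their sole marker held 4 of the 37 P2rx7 UMIs and 74402 of the 469706 UMIs of all genes. Their P2rx7 level was 53.8 CPM, with an interval (14.6 to 138 CPM) that includes the 78.8 CPM of the whole group. The part of cells with a second marker in the Klrd1+ value was not tested. In the colon the Klrd1+ ratio was 1.70 (1.08 to 2.59). Gata3+ cells lay below Gata3- cells in both libraries, at 0.541 (0.441 to 0.659) in the small intestine and 0.579 (0.440 to 0.762) in the colon.

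P2ry1 (ENSMUSG00000027765, chr3:61002795-61008982, + strand), the ADP receptor, was the member whose highest level among the marker groups was in Ccr6+ cells. Its level in the small intestine was 76.8 CPM in Ccr6+ cells, 35.2 CPM in Ncr1+ cells, 29.4 CPM in Gata3+ cells, 21.3 CPM in Klrd1+ cells and 12.9 CPM in Cd3e+ cells. In the colon it was 15.3, 7.62, 4.59, 4.46 and 4.50 CPM in the same order. In the small intestine the Ccr6+ interval (63.0 to 92.9 CPM) lay above that of Ncr1+ cells (30.1 to 41.0 CPM), and in the colon it overlapped it (9.91 to 22.6 against 4.44 to 12.2 CPM). Against Ccr6- cells the ratio was 1.98 in the small intestine (1.59 to 2.44) and 2.80 in the colon (1.74 to 4.35). Small intestine cells with Ccr6 alone (81.4 CPM, 63.9 to 102) overlapped those with no marker (60.4 CPM, 53.5 to 67.8). An antisense gene, Gm37035, overlaps P2ry1 and was counted separately, and whether the counting used the strand is not given in the sources used here.

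The small intestine was higher for P2ry1 5.02-fold in Ccr6+ cells (3.22 to 8.10), 4.62-fold in Ncr1+ cells (2.80 to 8.12), 6.41-fold in Gata3+ cells (4.74 to 8.76) and 2.86-fold in Cd3e+ cells (1.35 to 5.94). In Klrd1+ cells there were 17 UMIs in all. Cells with no marker were a large source of the gene, with 282 of the 638 small intestine UMIs at 60.4 CPM and 42 of the 138 colon UMIs at 10.3 CPM. The ratio in Gata3+ cells was not seen in those that also had a UMI of Il1rl1 (ST2, the IL-33 receptor of ILC2; 93 small intestine and 1146 colon cells), where P2ry1 had 2 small intestine UMIs (5.70 CPM) and 22 colon UMIs (5.26 CPM), a ratio of 1.08 (0.123 to 4.40). For P2rx7 the ratio in these cells was 1.59 (0.406 to 4.51), with 4 and 30 UMIs. In small intestine Gata3+ cells without Il1rl1, P2ry1 was at 31.2 CPM. Beside this, the ILC3 marker list summed to 4792 CPM in small intestine Gata3+ cells and 2632 CPM in colon Gata3+ cells. Over all cells it summed to 7066 and 3731 CPM. The ILC2 list summed to 3100 and 3407 CPM in Gata3+ cells. Of that list, only Il17rb (154 and 108 CPM) and Hes1 (1313 and 1130 CPM) were higher in the small intestine. Lower there were Il1rl1 (26.4 and 124 CPM), Il5 (58.4 and 234 CPM) and Klrg1 (293 and 450 CPM). Il13 (43.8 and 62.2 CPM), Areg (426 and 441 CPM) and Gata3 itself (785 and 858 CPM) were lower there too. The part of these differences in the P2ry1 ratio was not tested. For Nt5e, with 16 and 103 UMIs in the cells with Il1rl1, the ratio was 1.85 (1.02 to 3.15), beside 1.90 in all Gata3+ cells. With the second gene required, 0 members passed the rule with the small intestine higher in Gata3+ cells, in place of 2.

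**Figure D2:**
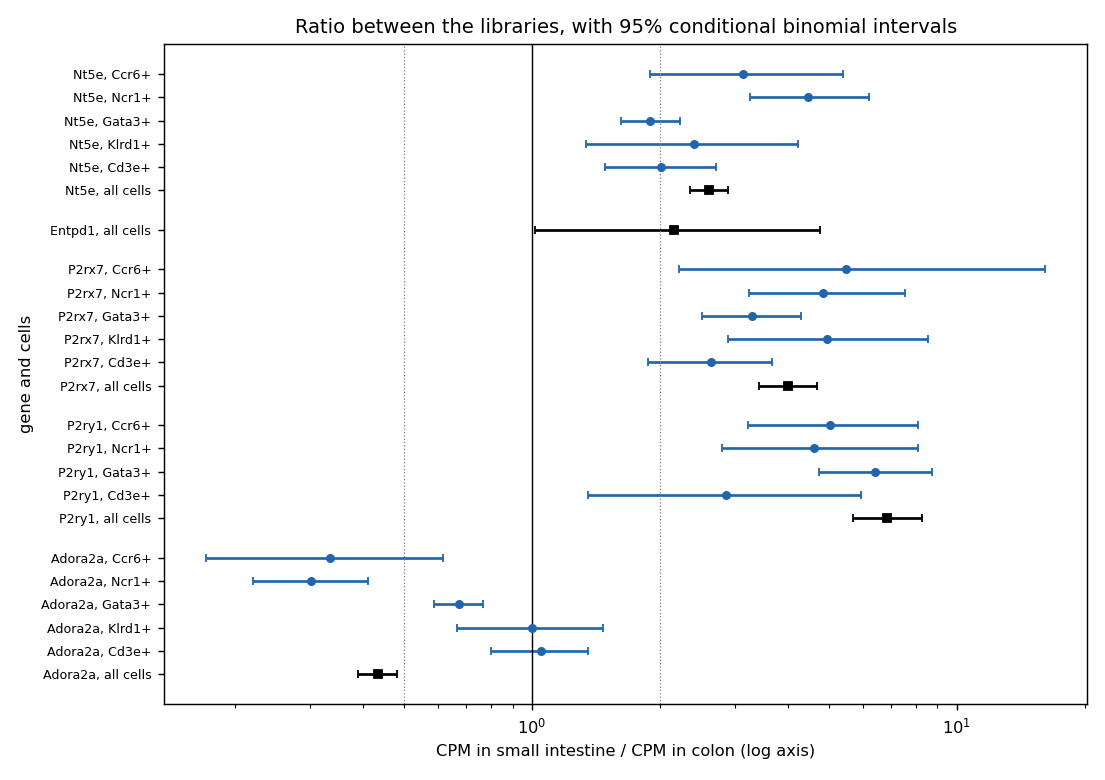
Ratio of small intestine CPM to colon CPM (log axis) for each gene and cell group with at least 20 UMIs; blue points are marker groups, black squares are all cells, bars are exact conditional binomial 95% intervals, and dotted lines mark 2-fold. The 3 genes Nt5e, P2rx7 and P2ry1 lie above 1 in every group drawn, and Adora2a lies below 1 in Ccr6+, Ncr1+ and Gata3+ cells and at 1 in Klrd1+ and Cd3e+ cells.

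Adora2a (ENSMUSG00000020178, chr10:75316877-75334784, + strand), the adenosine receptor, ran the other way. Its level in the small intestine was 10.1 CPM in Ccr6+ cells, 14.8 CPM in Ncr1+ cells, 56.8 CPM in Gata3+ cells, 74.5 CPM in Klrd1+ cells and 66.1 CPM in Cd3e+ cells. In the colon it was 30.0, 48.9, 84.4, 74.5 and 63.1 CPM in the same order. The small intestine groups fell into a low pair (Ccr6+ and Ncr1+) and a high trio whose intervals overlap, while in the colon Gata3+, Klrd1+, Cd3e+ and Ncr1+ cells formed a chain of overlapping neighbours above Ccr6+ cells. The colon was higher 3.31-fold in Ncr1+ cells (2.43 to 4.54), 2.98-fold in Ccr6+ cells (1.62 to 5.85) and 1.49-fold in Gata3+ cells (1.30 to 1.70). In Klrd1+ and Cd3e+ cells the ratio of colon to small intestine was 1.0 (0.680 to 1.50) and 0.954 (0.737 to 1.25). These last intervals include no difference and also differences of up to 1.50-fold.

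The Ccr6+ value of Adora2a rested on a minority of large cells. Of the 357 colon Ccr6+ cells, 119 (33.3%) had over 5000 UMIs, against 17 of 541 (3.14%) in the small intestine, and they held 41 of the 49 Adora2a UMIs. The median depth of the colon Ccr6+ cells was 3443 UMIs, against 2366 in the small intestine, and Hspa1a was at 530 CPM in them, against 105 CPM. Without cells with a Hspa1a UMI the colon was higher 2.70-fold. Hspa1a was at 262 CPM in the large colon cells and 875 CPM in the other colon Ccr6+ cells. The part of cell handling in the Adora2a ratio was not tested. The Adora2a level was 44.5 CPM in the large colon cells and 11.2 CPM in the others, and without cells above 5000 UMIs in either library the colon was higher 1.12-fold in place of 2.98-fold. In these 119 cells the ILC2 marker list was at 1101 CPM and the T cell list at 1096 CPM, against 414 and 462 CPM in the other colon Ccr6+ cells. Ccr6 itself was at 185 against 449 CPM. Of the 119 cells 35.3%, against 3.36% of the others, were among the cells that Scrublet scored highest as doublets. The same shares in the small intestine were 58.8% of the 17 large Ccr6+ cells and 3.24% of the others. In Ncr1+ cells the ratio without cells above 5000 UMIs was 3.03. P2ry1 went the other way, at 6.52 CPM in the large colon Ccr6+ cells and 26.7 CPM in the others, and without them its small intestine ratio was 2.93.

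The Adora2a difference over all cells was also computed within sets of cells. The ratio of colon to small intestine was 2.30 over all cells (2.07 to 2.56) and 1.50 (1.35 to 1.67) when libraries were compared within each of 25 combinations of the 5 markers and the ratios pooled, which is below 2-fold. For Nt5e, P2rx7 and P2ry1 the pooled ratios within marker combinations were 2.48, 3.88 and 5.04, beside 2.61, 4.0 and 6.85 over all cells. The Adora2a ratios differed between the combinations, so the pooled value depends on their weights. The colon was 3.62-fold higher in cells with no marker (2.66 to 4.97), 2.50-fold in cells with Ncr1 alone (1.29 to 4.68) and 1.26-fold in cells with Gata3 alone (1.09 to 1.46), which held 241 small intestine and 945 colon UMIs, and in cells with Cd3e alone the ratio was 0.894 (0.623 to 1.31).

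**Figure D3:**
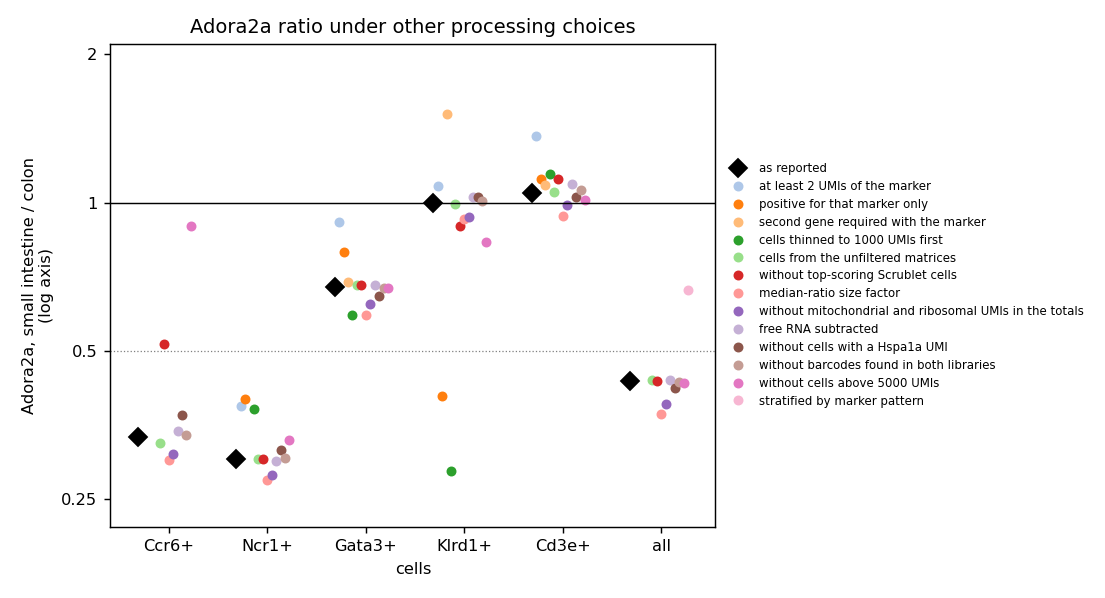
Ratio of Adora2a CPM in the small intestine to that in the colon (log axis) for each cell group, as reported (black diamonds) and under each other processing choice (coloured points); the dotted line marks 2-fold higher in the colon. In Ncr1+ cells the choices leave the colon between 2.50-fold and 3.65-fold higher, in Ccr6+ cells the ratio moves from 2.98-fold to 1.12-fold without cells above 5000 UMIs, and in Klrd1+ cells the choices scatter on both sides of 1.

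Single cells with a UMI gave the same order between libraries as the levels. After thinning, Adora2a was seen in 2.48% of the small intestine cells (2.08 to 2.92%) and 6.46% of the colon cells (5.92 to 7.04%), P2ry1 in 4.28% and 0.517%, and P2rx7 in 4.06% and 0.914%. Unthinned shares of Adora2a were 6.52% and 16.1%. Free RNA would give Adora2a in 0.138% and 0.558% of thinned cells and P2ry1 or P2rx7 in at most 0.188%. Entpd1 was seen in 0.0729% and 0.0795% of thinned cells, too few to order the libraries.

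Pairs of members were also counted cell by cell. In the small intestine, 38 of 877 cells with Nt5e also had Adora2a (4.33%, 3.08 to 5.90%), against 6.94% of the cells without Nt5e (6.22 to 7.71%). In the colon, 99 of 514 cells with Nt5e had Adora2a (19.3%, 15.9 to 22.9%), against 15.9% of the cells without it (15.0 to 16.8%). A deeper cell is more likely to show either gene, and after thinning 5 small intestine cells (1.40% of those with Nt5e, 0.456 to 3.24%) and 18 colon cells (8.65%, 5.21 to 13.3%) had both, against 2.55% (2.14 to 3.02%) and 6.40% (5.85 to 6.99%) of the cells without Nt5e. P2rx7 and P2ry1 were seen together in 67 of 528 small intestine cells with P2rx7 (12.7%, 9.97 to 15.8%), against 9.85% of the others, and in 5 of 210 colon cells. The small intestine share of Adora2a in cells with Nt5e thus lay below that in the others before thinning, with overlapping intervals after it, and the other pairs overlapped throughout.

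Within a library, the members that stood out by at least 2-fold differed between the marker groups. In the small intestine 1 of 4 measured genes, Adora2a, was higher in Gata3+ cells (2.75% of all genes were) and 0 were lower (3.85%). In Klrd1+ cells 2 were higher, P2rx7 and Adora2a (5.90%), and P2ry1 was lower (15.9%), and in Cd3e+ cells 1 was higher, Adora2a (3.93%), and P2ry1 was lower (11.6%). In Ccr6+ cells 0 were higher (5.83%) and 2, P2rx7 and Adora2a, were lower (7.58%), and in Ncr1+ cells 0 were higher (1.90%) and 1, Adora2a, was lower (5.68%). In the colon 0 were higher in Gata3+ cells (2.90%), where Adora2a was at 1.81-fold (1.62 to 2.03), with 0 lower (6.40%). P2ry1 was the 1 gene higher in Ccr6+ cells (8.16%), with the other 3 lower (8.35%), and P2rx7 the 1 higher in Cd3e+ cells (3.79%), with 0 lower (5.86%). Colon Ncr1+ and Klrd1+ cells had 0 higher (4.38% and 4.81%) and 0 lower (7.48% and 8.93%). These contrasts share cells, since the same cells serve as the negative side of several.

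The wider set of purine genes was read from 9 lists with 69 genes besides the 5. Of these 69, 39 had at least 20 UMIs over all cells, 6 passed 2-fold with the small intestine higher (8.92% of all genes did) and 2 with the colon higher (5.42%). Their median log2 ratio of small intestine to colon was 0.25, beside 0.20 for all 11962 genes measured. The 6 were Enpp2, Casp1, Slc28a2, Pde4a, Cd38 and Adk, and the 2 were Cd27 and Pde4d.

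Among the enzymes of the cell surface, Cd38, which consumes NAD, was at 44.4 and 21.4 CPM, 2.08-fold higher in the small intestine (1.84 to 2.34). Enpp5 was 1.87-fold (1.66 to 2.12), Enpp4 1.32-fold (1.21 to 1.45) and Acpp, a phosphatase that can also make adenosine, 1.15-fold higher (1.01 to 1.30). Enpp2 (autotaxin) rested on 26 UMIs, with a ratio of 6.22 (2.28 to 21.1). Over all cells the intervals of Enpp4, Enpp5 and Acpp lie below that of Nt5e. Within each marker group the intervals of Enpp5 and Nt5e overlapped. Their ratios were 1.52 and 3.15 in Ccr6+ cells and 2.50 and 4.46 in Ncr1+ cells. In Gata3+ cells they were 1.84 and 1.90, in Klrd1+ cells 2.43 and 2.40 and in Cd3e+ cells 1.96 and 2.01.

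Other receptors of each class were few. P2rx4, an ATP channel of endosomes and the cell surface, was at 89.1 and 45.4 CPM, a ratio of 1.96 (1.81 to 2.13), and P2ry14, a receptor for UDP-sugars, was at 6.70 and 7.34 CPM, a ratio of 0.912 (0.705 to 1.18). Adora2b had 13 UMIs, Adora3 2, P2ry2 2 and P2ry6 1 in the libraries together. Adora2a was the sole adenosine receptor with over 20 UMIs.

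Downstream and clearance genes were mixed. Casp1, the protease of the inflammasome that P2RX7 can trigger, was 2.29-fold higher in the small intestine (2.01 to 2.62), while Pycard was at 1.11 (1.03 to 1.20) and Nlrp3 at 1.42 (1.07 to 1.90). Cd27, a surface receptor shed after P2RX7 opens, was 2.19-fold higher in the colon (2.04 to 2.36). For adenosine clearance, Adk, which turns it back into AMP, was 2.07-fold (1.81 to 2.38) and the transporter Slc28a2 2.24-fold higher (1.81 to 2.79) in the small intestine, and Ada, which deaminates it, was at 0.684 (0.593 to 0.786). Of the cyclic AMP genes, the phosphodiesterase Pde4d was 2.22-fold higher in the colon (1.71 to 2.90).

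**Figure D4:**
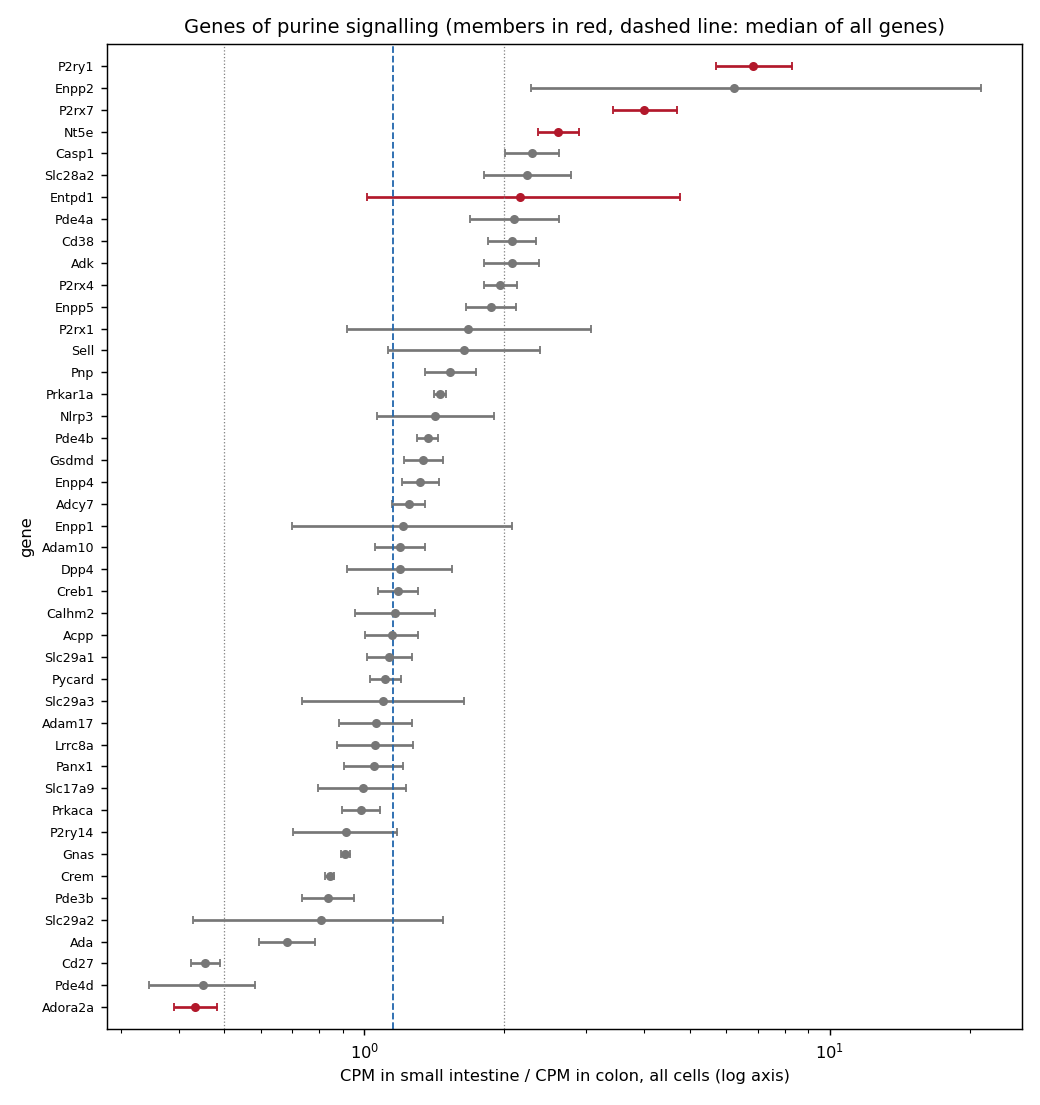
Ratio of small intestine CPM to colon CPM over all cells (log axis) for the genes of purine signalling with at least 20 UMIs, the 5 members in red; bars are 95% conditional binomial intervals, dotted lines mark 2-fold and the dashed line the median of all genes measured. P2ry1 and P2rx7 lie near one end of the set, with Enpp2 among them on a wide interval, and Adora2a at the other end beside Pde4d and Cd27.

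Across 12 sets of cells (those with exactly 1 of the 5 markers and those with none, in each library), the genes most like each member in log2(CPM + 10) were found among 7886 genes. P2rx7 ran closest to Ptgs2, the cyclooxygenase of prostaglandin synthesis (Pearson r = 0.967), Fam189b (0.950) and Ccr9, the small intestine homing receptor (0.941). P2ry1 ran closest to Sec11c (0.977), Hnrnpk (0.960) and Espn (0.957), and Nt5e to Arrb2 (0.935), Hey1 (0.924) and Lonp2 (0.902). Adora2a ran closest to Ifnar1 (0.951), Abcb9 (0.945) and Npm1 (0.943). These are the highest of many correlations over 12 points that share 2 libraries and their depths, and they are given as a description.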

How the data were processed

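Single-cell RNA of sorted ILCs was counted in 2 libraries made with 10x Chromium 3′ v2 chemistry. Per the submitters' processing notes the authors used Cell Ranger 3.0.2 and the mm10 build. The deposited values are raw UMI counts, in a table of cells chosen by the authors (the rule is not given in the sources used here) and in matrices of 737280 barcodes each, and 0 values of the table differed from the matrices. The libraries held 19745585 UMIs (15080081 in small intestine cells) and 25548284 UMIs (22332691 in colon cells), and 60 cell barcodes occurred in both, against 56.2 by chance.

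For each group of cells the UMIs of a gene were added up and divided by all UMIs of the group, which gave CPM. Levels have exact Poisson intervals, ratios exact conditional binomial intervals and shares Clopper-Pearson intervals. The intervals assume no extra variation between cells. A ratio was counted as past 2-fold where at least 20 UMIs stood behind it, and 3 counts limit a level of 0. Molecules were counted once each at the 3′ end, so levels of different genes are not ranked against each other. Shares were taken after thinning to 1000 UMIs. Free RNA made up 5.36% (small intestine) and 8.25% (colon) of the UMIs in cells, from antibody UMIs in cells with at most 10 of them. Gene coordinates were read from GENCODE vM21 (mm10).

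The genes, lists and marker groups were chosen with earlier results of these data known. A gene of the set and a marker gene are not reported here. The genes named are the 5 members, and from the lists the 8 with the interval farthest from 1 over all cells, those of a member's own class with at least 100 UMIs, and others chosen after their values were seen (Pde4a, Pycard, Nlrp3, Ada, Adora2b, Adora3, P2ry2 and P2ry6). Alternatives changed the marker rule, the cells, the scaling, the free RNA and the UMI floor. The comparisons within marker combinations (Mantel-Haenszel pooling) and without cells above 5000 UMIs, with a Hspa1a UMI or with a shared barcode were added after seeing the data. Doublets were not removed in the reported values. Scrublet in scanpy 1.11.5 marked 0.128% of the small intestine cells by its own threshold, so its top-scoring cells up to 0.8% per 1000 cells were left out as an alternative. Python 3.11.15, numpy 2.4.6, scipy 1.17.1 and pandas 2.3.3 were used. The ratio intervals were tested on simulated Poisson counts, which have no extra variation between cells or mice. That test checks the computation and cannot show how well the intervals cover such variation in these data.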

Additional observations from a re-analysis of the deposited data

Results flagged for a closer look

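Barcodes outside the authors' table that had 1000 or more UMIs, 300 or more genes and no more than 10% mitochondrial UMIs also carried some of the members above the level that free RNA would give. Entpd1 had 0 UMIs in them in both libraries. In the 375 such small intestine barcodes, Nt5e was at 91.1 CPM, P2rx7 at 37.1 CPM and P2ry1 at 48.9 CPM. In the 303 such colon barcodes, Adora2a was at 59.9 CPM. Besides Entpd1, the members with fewer than 20 UMIs in these barcodes were also above free RNA. Small intestine Adora2a was at 32.1 CPM (19.3 to 50.1), against 1.38 CPM from free RNA. Colon Nt5e was at 37.2 CPM (22.1 to 58.8), against 1.15 CPM. Colon P2rx7 was at 12.4 CPM (4.55 to 27.0), against 0.670 CPM, and P2ry1 at 10.3 CPM (3.36 to 24.1), against 0.526 CPM. Each of the levels in the barcodes was of the order seen in the cells of the table.

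Genes of the wider lists pointed to different libraries in different cell groups, and these differences between groups were not tested. Cd27 was higher in the small intestine in Cd3e+ cells (log2 ratio of small intestine to colon 0.34) and higher in the colon in the other groups, with log2 ratios of -0.89 in Ccr6+ cells, -1.50 in Ncr1+ cells, -0.60 in Gata3+ cells and -0.50 in Klrd1+ cells. Adk was higher in the small intestine in Ccr6+ cells (0.73) and Gata3+ cells (0.93) and higher in the colon in Klrd1+ cells (-1.88), a value that rests on 3 small intestine and 37 colon UMIs. In Ncr1+ cells (0.26) and Cd3e+ cells (-0.34) the interval of its ratio included 1.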

How the results depend on the processing

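No ratio of a member changed its called direction under the alternatives run. Of 249 recomputed ratios, 222 stayed inside the interval of the reported ratio and 27 did not. Over the alternatives, the ratio of small intestine to colon ranged from 2.82 to 9.90 for Nt5e in Ccr6+ cells, from 2.63 to 7.20 in Ncr1+ cells, from 4.92 to 13.8 for P2rx7 in Ccr6+ cells, from 3.58 to 8.80 in Ncr1+ cells, from 1.59 to 3.54 in Gata3+ cells, from 2.36 to 4.21 in Cd3e+ cells, from 2.93 to 5.06 for P2ry1 in Ccr6+ cells, from 2.66 to 8.33 in Ncr1+ cells, from 2.56 to 4.32 in Cd3e+ cells, from 1.08 to 7.72 in Gata3+ cells and from 0.285 to 1.51 for Adora2a in Klrd1+ cells. Among ratios that kept at least 20 UMIs, a required second gene ended 3 of the 2-fold calls between the libraries. Leaving out cells above 5000 UMIs ended 3, the median-ratio scaling 2, and totals without mitochondrial and ribosomal UMIs 2. Thinning, a sole marker, leaving out top-scoring Scrublet cells and pooling within marker combinations ended 1 each. Subtracting free RNA ended 1 (Nt5e in Cd3e+ cells, 1.96) and leaving out cells with a Hspa1a UMI ended 1 (Entpd1 over all cells, 1.99). Leaving out shared barcodes, requiring at least 2 marker UMIs and taking cells from the unfiltered matrices ended 0.

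Counts of members past 2-fold moved both ways. Higher in the small intestine, thinned cells gave 0 in Ccr6+ cells, 0 in Klrd1+ cells and 1 in Cd3e+ cells. Cells with that marker alone gave 0 in Klrd1+ and 1 in Cd3e+ cells, and a required second gene gave 0 in Klrd1+ and 0 in Gata3+ cells (the second gene planned for Ccr6+ and Ncr1+ cells was not used here). Higher in the colon, Ccr6+ cells gave 0 with at least 2 marker UMIs, with that marker alone, after thinning, without top-scoring Scrublet cells (where Adora2a was 1.94-fold higher) and without cells above 5000 UMIs, and 2 with no UMI floor. Klrd1+ cells gave 1 with that marker alone and 1 after thinning. Within the small intestine, Ncr1+ cells gave 1 with at least 2 marker UMIs and 1 after thinning, Klrd1+ cells gave 1 and Cd3e+ cells 2 after thinning, and Ccr6+ cells gave 1 without Scrublet cells, 1 with free RNA subtracted and 1 without Hspa1a cells. Within the colon, Klrd1+ cells gave 1 with at least 2 marker UMIs, 1 with no floor and 1 without cells above 5000 UMIs, Ncr1+ cells gave 1 after thinning and 1 with no floor, and Cd3e+ cells gave 2 with no floor. The median-ratio scaling shifts the log2 ratio of all cells by 0.22. Some counts fell as members dropped under the UMI floor, among them the thinned counts of 0 in Ccr6+ and Klrd1+ cells. Thinning left 12 ratios with at least 20 UMIs and ended 1 of their 2-fold calls. Shares of all genes were not recomputed under the alternatives, so these counts have none beside them. In cells with Klrd1 alone, Nt5e had 2 small intestine and 7 colon UMIs, and P2rx7 had 4 and 2. In cells with Ccr6 alone, Adora2a had 9 and 7. Where the floor was kept, Nt5e and P2rx7 in Klrd1+ cells stayed past 2-fold under all 9 alternatives. In Ccr6+ cells Nt5e (10 alternatives), P2rx7 (8) and P2ry1 (10) also did. In Gata3+ cells with the second gene, P2rx7 (1.59) and P2ry1 (1.08) were below 2-fold. The cause of the ratio changes was not tested. No paired analysis was possible because each tissue has 1 library.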
